A study of Mus musculus with 9 samples.

Results

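What tumour conditioned medium still changes in pancreatic stellate cells when JAK is inhibited, and what then lies below the level of control medium, was read from 6 of the 9 RNA-seq libraries of the study. These were all 3 libraries labelled CM-JAKi and all 3 labelled MG-CM. Mouse pancreatic stellate cell lines of C57BL/6J origin were grown for 4 days. The control medium (MG-CM) was DMEM with 5% FBS, and CM-JAKi was medium conditioned by tumour organoids with 500 nM of the JAK inhibitor AZD1480. The other 3 libraries came from conditioned medium without the inhibitor (CM). They entered the fit for its estimate of spread, and their levels are given beside some genes. Replicate 1 of each group was the line PSC4, replicate 2 was PSC5-I and replicate 3 was PSC5-II, and each number had its own source of conditioned medium. Line and medium source therefore change together between PSC4 and PSC5. PSC5-I and PSC5-II, counted as the same line in the test between lines, also differ in medium source. Same-numbered libraries were compared as pairs. No library received the inhibitor in control medium, so what the inhibitor does by itself and what conditioned medium does with JAK inhibited cannot be told apart. These are bulk cultures, in which fewer cells of a type and less RNA per cell cannot be told apart either.

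Janus kinases (JAKs) sit on the cytoplasmic tails of cytokine receptors and phosphorylate STAT transcription factors. Interferon receptors use them to switch on antiviral genes and the MHC class I pathway, and receptors of the interleukin 6 family use them to drive STAT3, acute phase genes and the feedback inhibitors of the SOCS family. Pancreatic stellate cells are the vitamin A-storing fibroblasts of the pancreas, which in tumours become contractile, matrix-making or cytokine-secreting fibroblasts.

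The 9 libraries held 25625806 to 32466018 counts, and 13613 of 17156 genes passed the filter on low counts. Vim and Pdgfrb, fibroblast genes, stood at 956 to 1760 and 485 to 766 CPM (counts scaled to a common total per library, here before TMM) in the 6 libraries, and Des, a marker of stellate cells, at 0.954 to 3.46 CPM. Several defining markers of other cells were near 0, with 0 to 6 counts of Epcam (epithelium), 0 to 1 of Ptprc (leukocytes), 0 to 3 of Cdh5 (endothelium), 4 to 7 of Sox10 (Schwann cells) and 0 to 3 of Prss2 (acinar cells). Krt19, a ductal keratin that was not called between the groups, stood at 4.09 to 25.3 CPM, and Msln, a mesothelial gene, at 2.61 to 54.3 CPM (not called, adjusted p = 0.135, and 0.0069 with CM left out of the fit). Cd14, a monocyte gene, stood at 13.3 to 32.9 CPM. The summed CPM of the 17 epithelial and tumour organoid markers in the table was 43.4 to 58.5 in MG-CM and 40.3 to 103 in CM-JAKi, and that of the 9 mesothelial markers 20.4 to 42.9 and 24.8 to 90.1. Msln was the highest member of both lists, and Krt19 is also in both, so these sums are not independent. The sum of the 13 leukocyte markers, with Cd14 the highest, was 23.6 to 37.0 in MG-CM and 17.0 to 34.5 in CM-JAKi. That of the 11 Schwann and neural markers, with the tubulin gene Tubb3 the highest, did not overlap, at 194 to 255 in MG-CM and 118 to 162 in CM-JAKi. Of 9 epithelial, 4 mesothelial, 4 leukocyte and 4 acinar or endocrine markers tested, the one called was Muc1, an epithelial mucin, which was lower at 15.7, 6.33 and 8.37 CPM in MG-CM against 6.68, 2.63 and 1.97 CPM in CM-JAKi (adjusted p = 0.0237, and 0.299 without the replicate block). Muc1 lost its call without MG-CM replicate 1 (0.0917), MG-CM replicate 2 (0.063), CM-JAKi replicate 2 (0.125), MG-CM replicate 3 (0.113) or CM-JAKi replicate 3 (0.0629). The epithelial list as a whole had a median log2 change of 0.60, with 5 of its 9 tested members above zero and 4 below. Unadjusted p lay under 0.05 for 3 higher and 3 lower members (9.67% and 9.15% over all genes). The log2 changes of its tested members ran from -1.47 to 4.98. Its members Krt8 (adjusted p = 0.0604) and Lgals4 (0.0643) were not called, but were with CM left out of the fit (0.00467 and 0.0448). Krt8 had 0 to 25 counts in the 6 libraries. The part of these other cell types in the changes described next was not tested.

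With JAK inhibited, conditioned medium left 252 genes above and 327 genes below the control medium level, 1.85% and 2.4% of the genes tested (4.25% together), at an adjusted p under 0.05. Of these, 115 were at least 2-fold higher and 181 at least 2-fold lower, and the median log2 change was 0.91 among the genes called higher, -1.20 among those called lower and 0.00 over all genes. A positive log2 change is higher in CM-JAKi. The p comes from an edgeR quasi-likelihood F-test with the replicate number as a block, adjusted by Benjamini-Hochberg over all genes tested, and ± gives the standard error of the fit. All 579 called genes moved the same way in 3 of 3 pairs. The test used these same pairs, so this adds no separate support to the calls. In 190 of the genes called higher and 266 of those called lower, the 3 CM-JAKi libraries did not overlap the 3 MG-CM libraries in scaled CPM, where the groups failed to overlap for 17.1% of all genes tested (8.87% higher and 8.24% lower). In the same fit CM against MG-CM, which shares the MG-CM libraries, had 1577 genes called higher (11.6%) and 1748 lower (12.8%), 24.4% together. Before adjustment, 1317 genes were higher (9.67%) and 1246 lower (9.15%) at a p under 0.05 in CM-JAKi against MG-CM, and DESeq2 called 449 higher (3.36%) and 588 lower (4.4%); the same counts given for gene lists are read against these shares.

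The number of calls changed with the pairing and with the libraries in the fit. A fit with a library left out also has fewer residual degrees of freedom than the 4 of the main fit. The part of this in the lower counts was not tested. Without the replicate block 39 genes were called higher (0.286%) and 98 lower (0.72%), 1.01% together, all of them also called with it. With CM left out of the fit, 567 of 13317 genes were higher (4.26%) and 716 lower (5.38%), 9.63% together. Leaving out a control library gave 161 higher and 166 lower for MG-CM replicate 1, 69 and 176 for replicate 2, and 37 and 63 for replicate 3. Leaving out a CM-JAKi library gave 105 and 160 for replicate 1, 43 and 70 for replicate 2, and 76 and 134 for replicate 3. A set of 79 genes, 28 higher and 51 lower, was called without each of the 6 libraries in turn.

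**Figure D1:**
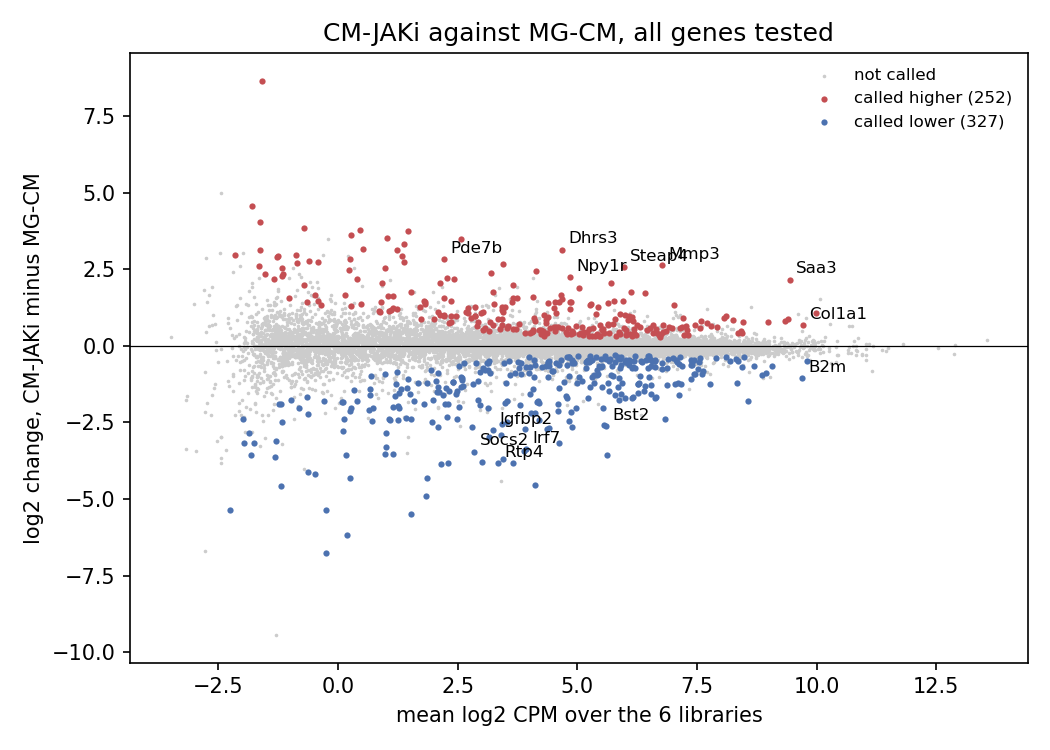
Log2 change of CM-JAKi against MG-CM (vertical axis) against the mean log2 CPM over the 6 libraries (horizontal axis) for each of the 13613 genes tested. Red points are the 252 genes called higher, blue points the 327 called lower and grey points the rest; interferon genes such as Rtp4 and Irf7 lie among the lowest, Mmp3, Saa3 and Steap4 among the highest of the well-expressed genes.

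**Figure D2:**
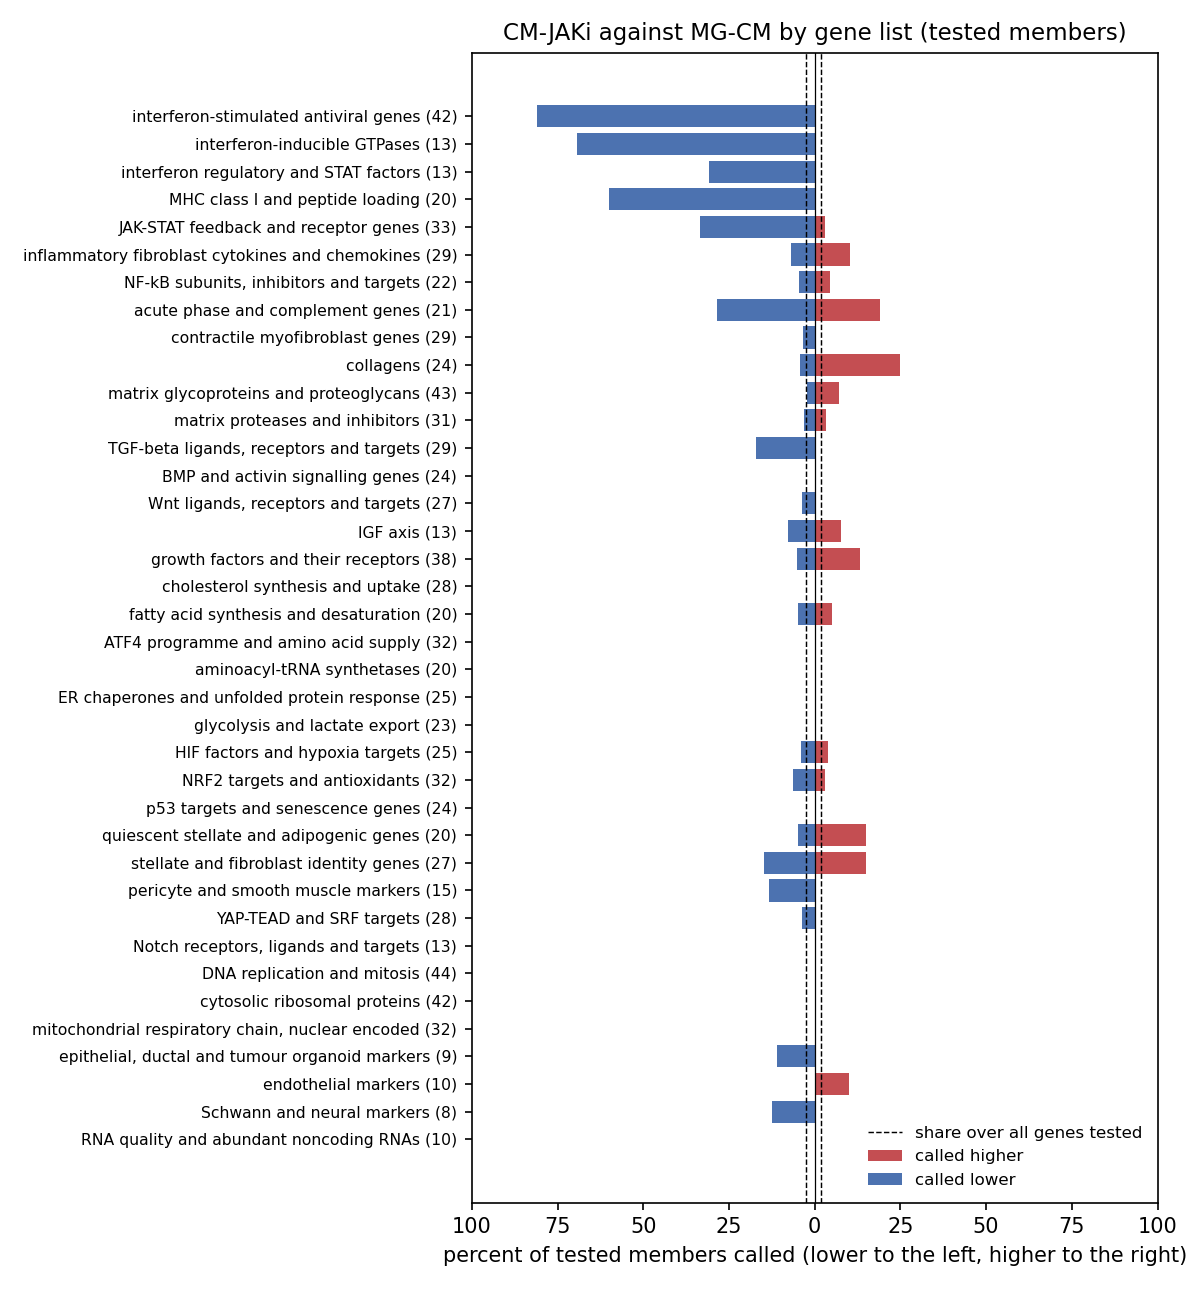
Percent of the tested members of each gene list called lower (blue, to the left) or higher (red, to the right) in CM-JAKi against MG-CM, for lists with at least 8 members tested (their number in brackets). Dashed lines mark 2.4% lower and 1.85% higher, the shares over all genes tested; the antiviral, GTPase and MHC class I lists reach farthest to the left and the collagens farthest to the right.

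Among the genes in the lists, interferon-responsive genes made up the largest group below the control medium level. Of the 327 genes called lower, 221 were in none of the 42 lists. Of 88 tested genes in the lists of antiviral genes, interferon-inducible GTPases, interferon regulatory and STAT factors, and MHC class I with peptide loading, 59 were lower and 0 were higher by edgeR (1 at an unadjusted p under 0.05, 0 by DESeq2). They held 18.0% of all genes called lower and 27 of the 78 called at least 4-fold lower. An interferon-stimulated response element, read as GAAA, any 2 bases and GAAA on either strand, is the DNA site bound by complexes of STAT and IRF factors downstream of the type I interferon receptor. It occurs in 1131 of 32851 RefSeq mouse promoter windows of 250 bases before to 50 bases after a gene start, or 3.44%. A share over the genes called lower is not given, because the 252 of 327 that matched a window (77.1%) fell under the share set for it. Of 11 matched MHC class I genes called lower, 2 held the element (18.2%). Among the 15 highest named genes it was held by 2 of 13 matched (15.4%). These are shares of genes, which can have several windows, and not of windows, and the difference between them was not tested. The following 40-base stretches of promoters (RefSeq, GRCm38.p6) are given 5′ to 3′ on the strand of the gene. All were picked because they hold such a match. Bst2, Irgm2, Stat2 and B2m each stand for one of the lists above. Slfn8 is in none of those lists and is among the 15 lowest named genes. Capitals mark the match, which is a description and not evidence of binding.
Slfn8, chr11:83020834-83020873, minus strand: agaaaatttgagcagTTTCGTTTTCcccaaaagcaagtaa
Bst2, chr8:71537572-71537611, minus strand: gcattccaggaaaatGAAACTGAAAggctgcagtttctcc
Irgm2, chr11:58214898-58214937, plus strand: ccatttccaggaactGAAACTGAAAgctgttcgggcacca
Stat2, chr10:128270261-128270300, plus strand: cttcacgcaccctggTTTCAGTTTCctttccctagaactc
B2m, chr2:122147533-122147572, plus strand: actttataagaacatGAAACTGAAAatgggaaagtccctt
The match in Bst2, Irgm2 and B2m reads GAAACTGAAA on the strand of the gene, and the matches in Slfn8 and Stat2 lie on the opposite strand. They start 48 (Slfn8), 124 (Bst2), 64 (Irgm2), 222 (Stat2) and 139 (B2m) bases before the gene start. Bst2 holds a second, overlapping match 130 bases before its start.

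Among the antiviral genes, 34 of 42 tested were lower and 0 higher, with a median log2 change of -1.92. Rtp4, a chaperone that binds viral RNA, stood at 60.7, 28.4 and 30.1 CPM in MG-CM replicates 1 to 3 and at 3.14, 2.84 and 2.24 CPM in CM-JAKi, 14.1-fold lower (log2 change -3.81 ± 0.26, adjusted p = 0.00138). Ifi27l2a, an interferon-induced membrane protein, stood at 31.9, 23.1 and 33.9 CPM against 1.94, 2.03 and 2.48 CPM (log2 change -3.79 ± 0.23, adjusted p = 0.0012). In both genes every CM-JAKi library lay far under every MG-CM library. The same genes stood above control in CM, at 112, 127 and 86.6 CPM for Rtp4 and 70.4, 113 and 105 CPM for Ifi27l2a. Zbp1, a sensor of Z-form nucleic acid, stood at 34.1, 9.1 and 13 CPM in MG-CM and 1.66, 1.05 and 0.89 CPM in CM-JAKi (log2 change -3.87 ± 0.42, adjusted p = 0.00804).

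Bst2, or tetherin, which holds budding virus at the cell surface, was abundant in control medium at 170.2, 89 and 113 CPM and stood at 22.2, 15.9 and 21.7 CPM in CM-JAKi, 6.11-fold lower (log2 change -2.61 ± 0.23, adjusted p = 0.00411). Usp18, which removes ISG15 from proteins and blocks the type I interferon receptor, stood at 79.1, 39.9 and 46.3 CPM against 7.14, 8.5 and 8.78 CPM (log2 change -2.73 ± 0.28, adjusted p = 0.00709). Slfn8, a Schlafen family member outside the list, stood at 32.4, 12.4 and 13.4 CPM against 1.66, 1.02 and 1.28 CPM (log2 change -3.83 ± 0.39, adjusted p = 0.00639). The PSC4 control library was the highest of the 3 MG-CM libraries for Bst2, Usp18, Slfn8, Rtp4 and Zbp1, while the 3 CM-JAKi libraries lay close together. Xaf1, an interferon-induced partner of apoptosis inhibitors, was 7.43-fold lower (log2 change -2.89 ± 0.33, adjusted p = 0.00864), and so were the lipoprotein-like genes Apol9a (log2 change -3.81 ± 0.27, adjusted p = 0.00167) and Apol9b (log2 change -3.68 ± 0.27, adjusted p = 0.00195), a near-identical pair between which estimated counts are uncertain. Oas1a, which makes the activator of RNase L, showed the largest fall named here among the antiviral genes, at 15.4, 12.3 and 20.1 CPM against 0.616, 0.628 and 1.24 CPM (log2 change -4.31 ± 0.34, adjusted p = 0.0027), and it too has near-identical neighbours. The count of 34 dropped to 13 without CM-JAKi replicate 1, 8 without CM-JAKi replicate 2, 11 without MG-CM replicate 3 and 20 without CM-JAKi replicate 3, and was 29 without the block. Xaf1 lost its call without CM-JAKi replicate 2 (0.0579). Here and below, brackets after a library or setting hold the adjusted p.

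The interferon-inducible GTPases, which attack the vacuoles of intracellular microbes, were lower in 9 of 13 tested members and higher in 0, with a median log2 change of -1.91. Gbp3, a guanylate-binding protein, stood at 114, 53.8 and 62 CPM in MG-CM and 8.99, 7.42 and 8.47 CPM in CM-JAKi (log2 change -3.18 ± 0.38, adjusted p = 0.00986). Irgm2, a regulator of these GTPases, stood at 86.6, 54.8 and 60 CPM against 10.4, 13.3 and 12.9 CPM (log2 change -2.47 ± 0.27, adjusted p = 0.00826). Its paralogue Irgm1 showed a smaller difference, 3.4-fold (log2 change -1.77 ± 0.22, adjusted p = 0.00986). No CM-JAKi library overlapped a control library in these 3 genes. Iigp1 was 10.8-fold lower (log2 change -3.43 ± 0.49, adjusted p = 0.0168), Gvin1, a giant GTPase, 11.7-fold lower (log2 change -3.55 ± 0.53, adjusted p = 0.0187) and Tgtp2 29.8-fold lower (log2 change -4.9 ± 0.59, adjusted p = 0.00983), the last 2 with near-identical copies in the genome. Fewer of these calls were made with some libraries left out. The number was 0 without CM-JAKi replicate 2, 1 without MG-CM replicate 3 and 4 without CM-JAKi replicate 1. Over all genes the lower calls also fell from 327, to 70, 63 and 160 in the same order. Whether the library or the smaller fit lies behind the losses was not tested. The fit of all libraries without the block made 8 of the 9 calls. Irgm2 lost its call without CM-JAKi replicate 2 (0.053). Gbp3 lost its call without CM-JAKi replicate 2 (0.0644) or MG-CM replicate 3 (0.0554). Irgm1 lost its call without CM-JAKi replicate 2 (0.0669) or MG-CM replicate 3 (0.0628). Iigp1 lost its call without CM-JAKi replicate 1 (0.0572), CM-JAKi replicate 2 (0.104) or MG-CM replicate 3 (0.0537) or with CM left out of the fit (0.103). Gvin1 lost its call without CM-JAKi replicate 1 (0.0774), CM-JAKi replicate 2 (0.0894) or MG-CM replicate 3 (0.078). Tgtp2 lost its call without CM-JAKi replicate 2 (0.0644) or MG-CM replicate 3 (0.0523).

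Transcription factors that carry the interferon signal were also among the genes called lower. Every call among the 13 tested IRF and STAT genes was in that direction, and the median of the list was -0.27. Irf7, which amplifies type I interferon, stood at 79.5, 33.6 and 40.5 CPM in MG-CM and 4.4, 5.39 and 4.72 CPM in CM-JAKi (log2 change -3.38 ± 0.39, adjusted p = 0.00882). Irf9, a DNA-binding partner of STAT2, stood at 126, 77.3 and 84.1 CPM against 24.8, 23.2 and 20.8 CPM (log2 change -2.04 ± 0.14, adjusted p = 0.00138). Stat2 stood at 153, 80 and 90.3 CPM against 39, 35.5 and 32.5 CPM (log2 change -1.56 ± 0.21, adjusted p = 0.0132). Stat3, the factor downstream of the interleukin 6 family, had a log2 change of -0.27 with a 95% interval of -0.47 to -0.07 and was not called by edgeR (adjusted p = 0.142), but was by DESeq2 (0.0377) and in the fit with CM left out (0.0339). Irf7 lost its call without CM-JAKi replicate 2 (0.0572). Stat2 lost its call without CM-JAKi replicate 1 (0.063), CM-JAKi replicate 2 (0.0808), MG-CM replicate 3 (0.078) or CM-JAKi replicate 3 (0.0549).

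**Figure D3:**
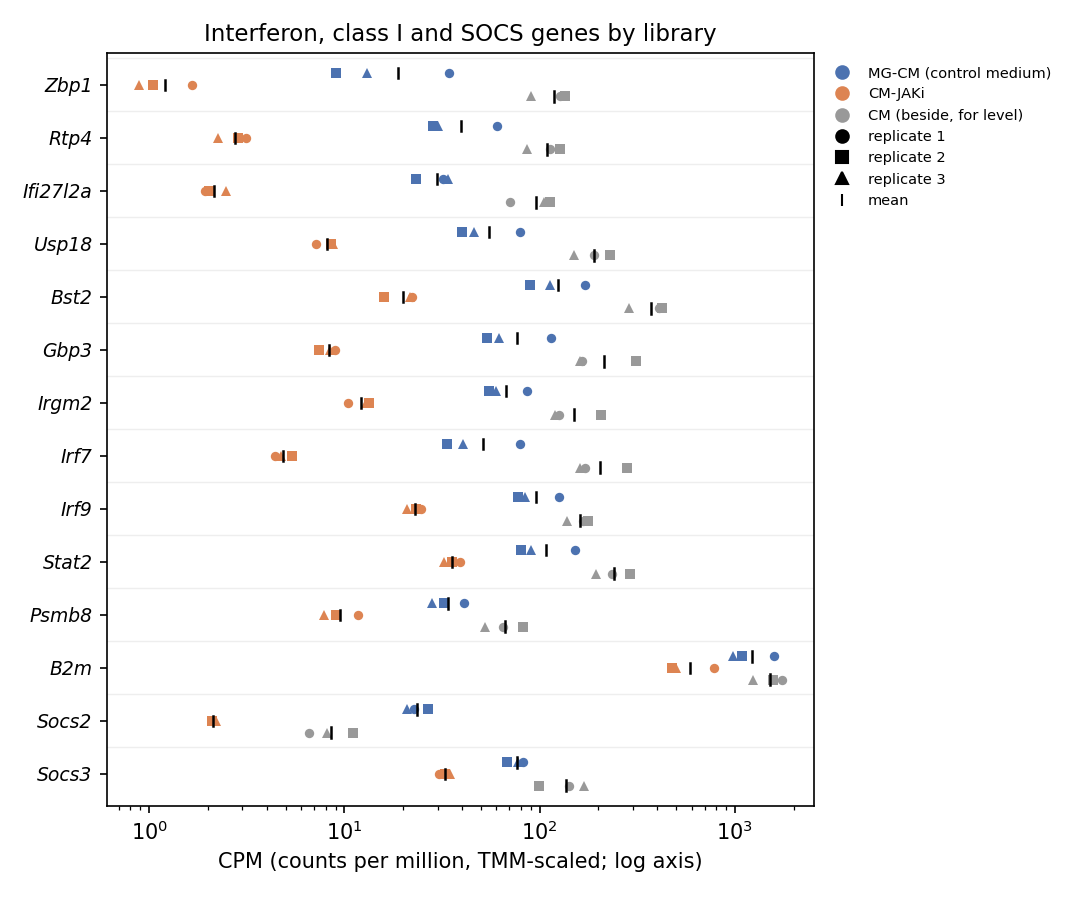
TMM-scaled CPM on a log axis for 14 interferon, MHC class I and SOCS genes in each library, with MG-CM in blue, CM-JAKi in orange and CM in grey; marker shapes give the replicate number and black ticks the mean of 3. Every orange point lies left of every blue point of the same gene, and Socs2 is the only gene shown whose CM points also lie left of its MG-CM points.

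In the MHC class I pathway, which shows peptides from inside the cell to T cells, 12 of 20 tested members were lower and 0 higher, with a median log2 change of -0.93. B2m, the invariant light chain, stood at 1595, 1087 and 982 CPM in MG-CM and 784, 475 and 501 CPM in CM-JAKi, 2.08-fold lower (log2 change -1.06 ± 0.12, adjusted p = 0.00779). Psmb8, a subunit of the immunoproteasome, stood at 40.9, 32.3 and 28.2 CPM against 11.7, 9.04 and 7.85 CPM (log2 change -1.83 ± 0.14, adjusted p = 0.00195). Neither gene overlapped between the groups. The class Ib genes H2-Q6 (log2 change -2.64 ± 0.29, adjusted p = 0.00779) and H2-Q7 (log2 change -2.02 ± 0.24, adjusted p = 0.00882) were also lower, with reads that near-identical copies can share. Without the block 3 of the 12 calls were made, with B2m at an adjusted p of 0.111. The number was 8 without MG-CM replicate 1, 3 without CM-JAKi replicate 2 and 2 without MG-CM replicate 3. B2m lost its call without CM-JAKi replicate 2 (0.0522) or MG-CM replicate 3 (0.0546). H2-Q7 lost its call without CM-JAKi replicate 2 (0.0573) or MG-CM replicate 3 (0.0552). In MHC class II, edgeR called 0 of 4 tested genes, with 1 at an unadjusted p under 0.05 and 1 called by DESeq2. Its invariant chain Cd74 stood at 5.35, 4.4 and 7.65 CPM in MG-CM, 3.32, 2.09 and 1.78 CPM in CM-JAKi and 77.8, 30.7 and 79.9 CPM in CM (CM-JAKi against MG-CM: log2 change -1.24, 95% interval -2.0 to -0.48, adjusted p = 0.0929). Cd74 was the gene called by DESeq2 (0.000437), and with CM left out of the fit its adjusted p was 0.0437.

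Among 33 tested receptors, kinases and feedback inhibitors of the JAK-STAT pathway, 11 were lower and 1, the interferon gamma receptor chain Ifngr2, was higher. Socs2, a feedback inhibitor best known for damping growth hormone signalling, stood at 22.8, 26.7 and 20.8 CPM in MG-CM and 2.09, 2.09 and 2.2 CPM in CM-JAKi, 11-fold lower (log2 change -3.45 ± 0.17, adjusted p = 0.000446). Socs2 was below control in CM too, at 6.57, 11 and 8.1 CPM (log2 change -1.47 ± 0.15, adjusted p = 0.00185), which none of the interferon genes named above was. Socs3, the inhibitor of interleukin 6 family signalling, stood at 82.6, 68 and 77.8 CPM against 30.4, 32.6 and 34.9 CPM (log2 change -1.22 ± 0.14, adjusted p = 0.00779), with CM above both at 141, 99.5 and 169 CPM. Receptor subunits of interleukin 4 and 13 followed: Il13ra1 stood at 246, 144 and 161 CPM against 85.1, 47.1 and 43.8 CPM (log2 change -1.67 ± 0.09, adjusted p = 0.000446) and Il4ra at 258, 169 and 212 CPM against 104, 78.4 and 88.5 CPM (log2 change -1.23 ± 0.12, adjusted p = 0.00515).

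Of the kinases themselves, Jak2 stood at 352, 201 and 257 CPM in MG-CM and 177, 126 and 147 CPM in CM-JAKi (log2 change -0.82 ± 0.10, adjusted p = 0.00864). Jak1 stood at 404, 357 and 352 CPM against 295, 271 and 263 CPM, a 1.34-fold difference (log2 change -0.42 ± 0.07, adjusted p = 0.0272). Neither overlapped between the groups. Of the 11 genes called lower, 4 were called without the block, where adjusted p was Il13ra1 (0.0787), Jak1 (0.0728) and Jak2 (0.276). With single libraries left out, 5 to 7 of the 11 calls were made, the fewest without MG-CM replicate 3. Jak1 lost its call without any 1 of the 6 libraries (0.0888 to 0.16), and Jak2 without MG-CM replicate 3 (0.0644).

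Some inflammatory genes were above the control level with JAK inhibited. Of 29 tested cytokines and chemokines, 3 were higher and 2 lower. Of these 3, Cxcl1 and Cxcl5 were also called higher in CM against MG-CM, and Cxcl16 was not (adjusted p = 0.218). Cxcl1 stood at 14.3, 16 and 20.7 CPM in MG-CM and 74.9, 39.4 and 88.9 CPM in CM-JAKi, 3.7-fold higher (log2 change 1.89 ± 0.31, adjusted p = 0.0249). Cxcl5 stood at 36.1, 44.6 and 64.1 CPM against 172, 78.6 and 287 CPM (log2 change 1.73 ± 0.31, adjusted p = 0.0347). The CM levels were 71.4, 23 and 76.5 CPM for Cxcl1 and 92, 65.9 and 251 CPM for Cxcl5, in the same range as with the inhibitor. Cxcl16, a membrane-bound chemokine for CXCR6, stood at 50.9, 39.1 and 35.4 CPM in MG-CM, 53.5, 40.1 and 42.6 CPM in CM and 105, 74.7 and 76.2 CPM in CM-JAKi (log2 change 1.03 ± 0.07, adjusted p = 0.0012). The 2 genes called lower were Ccl8, a monocyte chemokine, and Il7 (log2 change -0.92 ± 0.18, adjusted p = 0.0392). Cxcl1, Cxcl5, Ccl8 and Il7 were not called without the block, with adjusted p of Cxcl1 (0.0956), Cxcl5 (0.242), Ccl8 (0.731) and Il7 (0.139). Cxcl1 lost its call without MG-CM replicate 1 (0.0639), CM-JAKi replicate 1 (0.0756), CM-JAKi replicate 2 (0.112), MG-CM replicate 3 (0.131) or CM-JAKi replicate 3 (0.0942). Cxcl5 lost its call without MG-CM replicate 1 (0.112), CM-JAKi replicate 1 (0.0979), CM-JAKi replicate 2 (0.0624), MG-CM replicate 3 (0.134) or CM-JAKi replicate 3 (0.116) or with CM left out of the fit (0.132) or with no low-count filter (0.0628). Il7 lost its call without any 1 of the 6 libraries (0.0897 to 0.211).

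The cytokines that signal through gp130 were not called, and the intervals of Lif, Il11 and Il6 are wide. Lif stood at 4.12, 5.14 and 6.82 CPM in MG-CM and 34.6, 9.78 and 16.7 CPM in CM-JAKi, without overlap (log2 change 1.67, 95% interval 0.58 to 2.76, adjusted p = 0.109), and DESeq2 gave an adjusted p of 0.042. Il11 stood at 0.137, 0.406 and 0.568 CPM against 2.34, 0.868 and 0.735 CPM (log2 change 1.63, 95% interval -0.2 to 3.45, adjusted p = 0.317). Il6 stood at 2.61, 1.66 and 2.61 CPM against 9.27, 0.928 and 1.32 CPM (log2 change 0.23, 95% interval -1.2 to 1.67, adjusted p = 0.882). In the PSC4 pair Il6 was higher with CM-JAKi, by 1.80 on the log2 scale, and in both PSC5 pairs lower, by log2 changes of -0.79 and -0.96. The test of that difference between lines gave an adjusted p of 1 with 1 pair of PSC4 against 2 of PSC5. Ccl2, a monocyte chemokine, stood at 323, 367 and 403 CPM against 527, 402 and 517 CPM (log2 change 0.4, 95% interval 0.12 to 0.69, adjusted p = 0.131, and 0.0305 by DESeq2), and Il1r1, the receptor for interleukin 1, at 138, 72.7 and 99.3 CPM against 131, 54.8 and 58.4 CPM (log2 change -0.39, 95% interval -0.83 to 0.04, adjusted p = 0.312).

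Acute phase and complement genes divided, with 4 of 21 tested higher and 6 lower. Saa3, a serum amyloid A made by fibroblasts and macrophages, stood at 571, 172 and 377 CPM in MG-CM and 2385, 414 and 3086 CPM in CM-JAKi, higher in each pair but overlapping between groups (log2 change 2.16 ± 0.33, adjusted p = 0.0203). Steap4, a metalloreductase induced by inflammatory cytokines, stood at 71.8, 13.4 and 17.2 CPM against 367, 65.8 and 154 CPM, again with overlap, the PSC4 control lying above 1 CM-JAKi library (log2 change 2.58 ± 0.25, adjusted p = 0.00574). Their levels in CM were 3785, 892 and 2335 CPM for Saa3 and 200.2, 69.1 and 112 CPM for Steap4. In the other direction, Serpina3n, an acute phase protease inhibitor, stood at 594, 159 and 186 CPM against 105, 24.6 and 46.9 CPM, 5.27-fold lower (log2 change -2.4 ± 0.27, adjusted p = 0.00864). Pros1, the anticoagulant protein S, was lower (log2 change -0.93 ± 0.11, adjusted p = 0.00838), and so was Lrg1, a glycoprotein induced by STAT3, which stood at 1.23, 0.575 and 0.834 CPM against 0.185, 0.0898 and 0.193 CPM (log2 change -2.48 ± 0.32, adjusted p = 0.00983).

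Without the block 0 of the 4 higher and 1 of the 6 lower acute phase calls were made, with adjusted p of Saa3 (0.278), Steap4 (0.269), Serpina3n (0.159) and Pros1 (0.281). Saa3 lost its call without MG-CM replicate 1 (0.0775), CM-JAKi replicate 1 (0.0585) or MG-CM replicate 3 (0.105) or with CM left out of the fit (0.12). Pros1 lost its call without MG-CM replicate 3 (0.0588), and Lrg1 without CM-JAKi replicate 2 (0.0627). Among 22 tested NF-kB subunits, inhibitors and targets, 1 was higher and 1 lower. Nfkbiz, a nuclear member of the inhibitor family, was higher at 102, 62.3 and 88.7 CPM against 151, 109 and 105 CPM (log2 change 0.54 ± 0.11, adjusted p = 0.0382). The lower one was Tnfaip2 (log2 change -0.52 ± 0.10, adjusted p = 0.0396). Nfkbiz lost its call without MG-CM replicate 1 (0.113), CM-JAKi replicate 1 (0.119), MG-CM replicate 2 (0.121), CM-JAKi replicate 2 (0.191) or CM-JAKi replicate 3 (0.0695). Tnfaip2 lost its call without any 1 of the 6 libraries (0.0684 to 0.205). Neither was called without the block, with adjusted p of Nfkbiz (0.418) and Tnfaip2 (0.377).

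Mmp3 (stromelysin 1), which cuts many matrix proteins, was the only matrix protease or inhibitor called higher among 31 tested. It stood at 73, 36.9 and 31.1 CPM in MG-CM, 398, 319 and 154 CPM in CM-JAKi and 517, 449 and 435 CPM in CM, and was 6.2-fold above control with the inhibitor (log2 change 2.63 ± 0.25, adjusted p = 0.00521). Every CM-JAKi library lay above every MG-CM library, and the call was made without the block (adjusted p = 0.0239) and without each library in turn. The lysosomal protease Ctsl was the only one called lower, at 1329, 941 and 946 CPM against 962, 703 and 631 CPM (log2 change -0.49 ± 0.10, adjusted p = 0.0378), and was not called without the block (0.464). Ctsl lost its call without any 1 of the 6 libraries (0.0864 to 0.211) or with scaling by library size (0.0541).

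**Figure D4:**
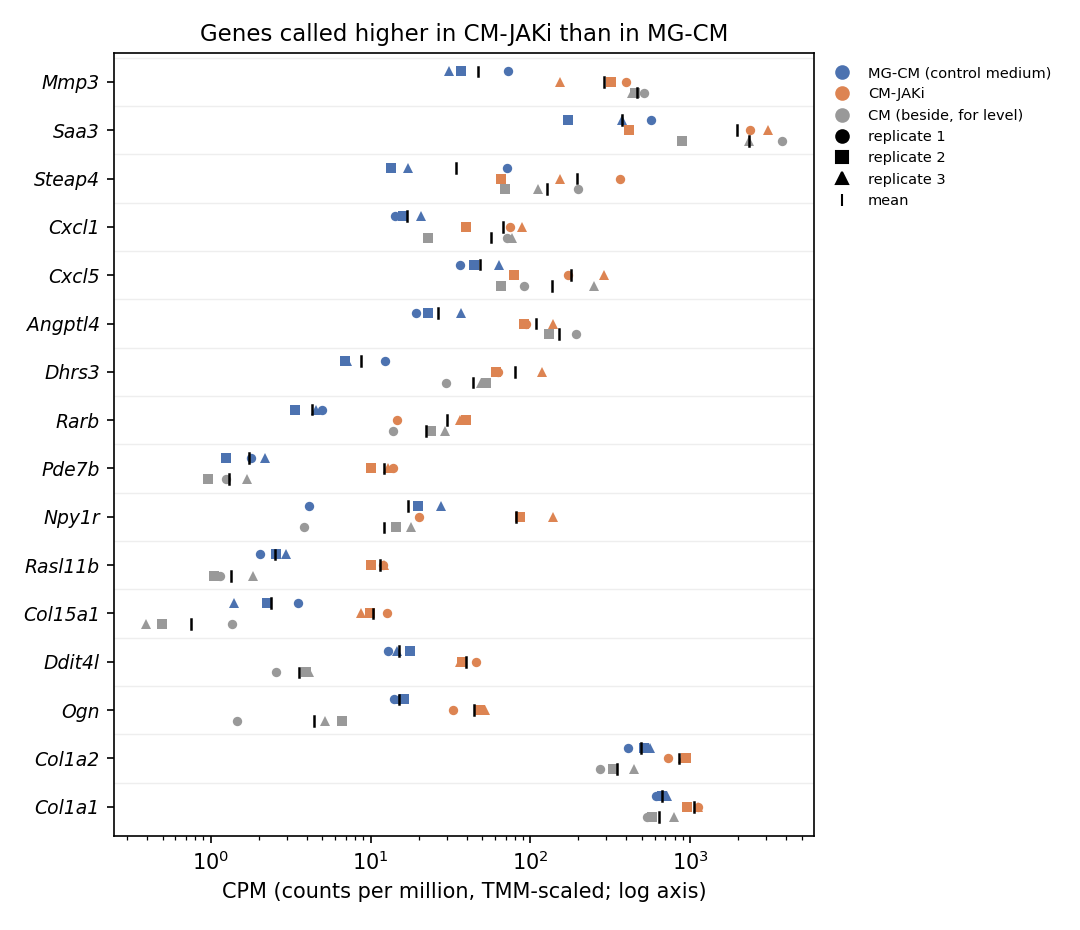
TMM-scaled CPM on a log axis for 16 genes called higher in CM-JAKi (orange) than in MG-CM (blue), with CM in grey; marker shapes give the replicate number and black ticks the mean of 3. From Mmp3 to Rarb the mean of CM also lies above the mean of MG-CM, and from Pde7b to Col1a1 it lies below.

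Dhrs3 and Rarb, genes of retinoid handling and response, were above control, and Aldh1a2, another gene of retinoid handling, was below it. Stores of retinoid mark the quiescent stellate cell. Of 20 tested quiescent stellate and adipogenic genes, 3 were higher and 1 lower, with a list median log2 change of 0.59. Dhrs3, an enzyme that turns retinal back to retinol, stood at 12.2, 6.94 and 7.12 CPM in MG-CM and 62.9, 61.4 and 118 CPM in CM-JAKi, 8.79-fold higher (log2 change 3.14 ± 0.38, adjusted p = 0.00986). Rarb, a retinoic acid receptor that is itself induced by retinoic acid, stood at 4.97, 3.38 and 4.55 CPM against 14.7, 39.7 and 36.4 CPM (log2 change 2.69 ± 0.35, adjusted p = 0.0123). Aldh1a2, which makes retinoic acid, moved the other way, from 10.7, 4.5 and 5.53 CPM to 1.48, 0.329 and 0.309 CPM (log2 change -3.31 ± 0.61, adjusted p = 0.0363). None of the 3 overlapped between groups. The third gene called higher, Angptl4, a secreted inhibitor of lipoprotein lipase, stood at 19.3, 22.8 and 37.1 CPM against 93.5, 91.4 and 139 CPM (log2 change 2.04 ± 0.26, adjusted p = 0.0119). In CM the levels were 29.7, 52.7 and 49.1 CPM for Dhrs3, 13.7, 23.8 and 29.4 CPM for Rarb, 1.15, 2.23 and 2.95 CPM for Aldh1a2 and 194, 132 and 130.1 CPM for Angptl4. Dhrs3 lost its call without MG-CM replicate 3 (0.0546) or with CM left out of the fit (0.0512). Rarb lost its call without CM-JAKi replicate 2 (0.0579), MG-CM replicate 3 (0.0814) or CM-JAKi replicate 3 (0.0537) or with CM left out of the fit (0.0789). Angptl4 lost its call without MG-CM replicate 2 (0.0524), CM-JAKi replicate 2 (0.0627) or CM-JAKi replicate 3 (0.0616). Aldh1a2 lost its call without MG-CM replicate 1 (0.129), MG-CM replicate 2 (0.112), CM-JAKi replicate 2 (0.164), MG-CM replicate 3 (0.119) or CM-JAKi replicate 3 (0.126). Aldh1a2 was also not called without the block (0.0669).

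Genes of other kinds were above control in both CM-JAKi and CM. Fibin, a secreted protein named for fin bud development, had the largest rise of the genes with symbols of known genes and a mean log2 CPM over 2, at 1.37, 2.37 and 1.71 CPM in MG-CM and 8.0, 32 and 28.4 CPM in CM-JAKi (log2 change 3.49 ± 0.30, adjusted p = 0.00356), against 2.5, 4.9 and 6.53 CPM in CM. Gria4, an AMPA-type glutamate receptor subunit, stood at 3.12, 11 and 12.8 CPM, 13.1, 67.8 and 73.4 CPM and 6.99, 45.7 and 35 CPM in MG-CM, CM-JAKi and CM (log2 change 2.43 ± 0.16, adjusted p = 0.00122). Edil3, an integrin ligand of the matrix, was 4.16-fold higher in CM-JAKi than in MG-CM (log2 change 2.06 ± 0.32, adjusted p = 0.0203). PSC4 had the lowest CM-JAKi level of Fibin, Gria4 and Edil3.

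Other genes were above control with the inhibitor while CM without it was at or under control. Pde7b, a phosphodiesterase that breaks down cyclic AMP, stood at 1.78, 1.25 and 2.2 CPM in MG-CM, 13.8, 10 and 12.8 CPM in CM-JAKi and 1.25, 0.961 and 1.67 CPM in CM (log2 change 2.83 ± 0.16, adjusted p = 0.000571). Npy1r, a receptor for neuropeptide Y, stood at 4.12, 20 and 27.7 CPM, 20.2, 86.4 and 138 CPM and 3.82, 14.5 and 18 CPM (log2 change 2.23 ± 0.11, adjusted p = 0.000446). The groups overlap for Npy1r, whose lowest level in each group was in PSC4, yet each pair differed by about the same factor, with log2 differences of 2.27, 2.11 and 2.32. Rasl11b, a small GTPase of the Ras family, stood at 2.02, 2.57 and 2.96 CPM, 12, 10.1 and 12.2 CPM and 1.15, 1.05 and 1.84 CPM (log2 change 2.19 ± 0.18, adjusted p = 0.00261). Ppp1r9a, or neurabin, an actin-binding partner of protein phosphatase 1, was 3.98-fold above control (log2 change 1.99 ± 0.17, adjusted p = 0.00297), and Parm1, a mucin-like membrane protein, 5.24-fold (log2 change 2.39 ± 0.41, adjusted p = 0.0278).

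Emcn, a sialomucin best known from endothelium, stood at 0.926, 0.914 and 0.531 CPM in MG-CM, 6.31, 12.8 and 3.52 CPM in CM-JAKi and 0, 0 and 0.0328 CPM in CM (log2 change 3.14 ± 0.33, adjusted p = 0.00597). It was the only endothelial marker called among 10 tested, and the endothelial Cdh5 had 0 to 3 counts in these libraries. Ddit4l, an inhibitor of mTOR signalling, stood at 12.8, 17.7 and 14.7 CPM, 45.9, 37.3 and 36.5 CPM and 2.57, 3.97 and 4.1 CPM in the same order (log2 change 1.42 ± 0.19, adjusted p = 0.0111). Of the genes in these paragraphs, Pde7b, Npy1r, Rasl11b, Ppp1r9a, Fibin and Gria4 were called without each library in turn. Edil3 lost its call without MG-CM replicate 1 (0.0711), MG-CM replicate 2 (0.116), CM-JAKi replicate 2 (0.113) or MG-CM replicate 3 (0.0885). Parm1 lost its call without MG-CM replicate 1 (0.0977), CM-JAKi replicate 1 (0.0978), MG-CM replicate 3 (0.107) or CM-JAKi replicate 3 (0.107) or with CM left out of the fit (0.0764). Emcn lost its call without CM-JAKi replicate 2 (0.0526). Ddit4l lost its call without MG-CM replicate 1 (0.0512) or MG-CM replicate 3 (0.078). Adjusted p without the block was Npy1r (0.37), Gria4 (0.293), Edil3 (0.411), Ppp1r9a (0.0906) and Parm1 (0.0669).

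Type I collagen was among the genes above control. Of 24 collagens tested, 6 were higher (Col1a1, Col1a2, Col4a5, Col7a1, Col11a1 and Col15a1) and 1 lower, with a median log2 change of 0.30. Col1a1 and Col1a2, the chains of the fibrillar type I collagen, stood at 614, 667 and 715 CPM and 412, 518 and 560.2 CPM in MG-CM and at 1119, 958 and 1116 CPM and 726, 950.2 and 901 CPM in CM-JAKi. The differences were 1.6-fold for Col1a1 (log2 change 0.68 ± 0.12, adjusted p = 0.0295) and 1.74-fold for Col1a2 (log2 change 0.8 ± 0.11, adjusted p = 0.0115), with no overlap between the groups. In CM, Col1a2 was below control (log2 change -0.52 ± 0.11, adjusted p = 0.015) and Col1a1 was not called (log2 change -0.08 ± 0.12, adjusted p = 0.662). Col15a1, a basement membrane collagen that carries glycan chains, stood at 3.53, 2.23 and 1.4 CPM against 12.6, 9.96 and 8.7 CPM, 4.6-fold higher (log2 change 2.2 ± 0.24, adjusted p = 0.00639), and at 1.36, 0.496 and 0.394 CPM in CM. Col7a1, the collagen of anchoring fibrils, was 2.0-fold higher (log2 change 1.0 ± 0.16, adjusted p = 0.0203).

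Col12a1, a collagen that decorates fibrils, was the one called lower, at 296, 174 and 162 CPM against 121, 66.5 and 78.4 CPM (log2 change -1.25 ± 0.12, adjusted p = 0.00432), and was also below control in CM (log2 change -0.99 ± 0.12, adjusted p = 0.00278). The Col12a1 call was made without each library in turn but not without the block (0.176). Among the collagens called higher, 0 were called without the block and 0 to 3 with 1 library left out, 0 without CM-JAKi replicate 2 and 1 without either MG-CM replicate 2 or MG-CM replicate 3. Col15a1 lost its call without CM-JAKi replicate 2 (0.0526), and Col1a1 without any 1 of the 6 libraries (0.072 to 0.165). Col1a2 lost its call without CM-JAKi replicate 1 (0.0524), MG-CM replicate 2 (0.0599), CM-JAKi replicate 2 (0.0808) or MG-CM replicate 3 (0.085). Col7a1 lost its call without MG-CM replicate 1 (0.065), MG-CM replicate 2 (0.113), CM-JAKi replicate 2 (0.112), MG-CM replicate 3 (0.0814) or CM-JAKi replicate 3 (0.0725).

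In 43 tested matrix glycoproteins and proteoglycans, 3 were higher and 1 lower. Ogn (osteoglycin), a small leucine-rich proteoglycan, stood at 13.9, 16.1 and 15.1 CPM in MG-CM and 33, 48.4 and 52.2 CPM in CM-JAKi (log2 change 1.52 ± 0.30, adjusted p = 0.0438). Mfap2, a protein of elastic microfibrils, was 2.05-fold higher (log2 change 1.03 ± 0.21, adjusted p = 0.0476), and Mfap4, which binds elastin and collagen, 5.58-fold higher at under 6 CPM in all libraries (log2 change 2.48 ± 0.48, adjusted p = 0.0369). Versican, Vcan, a large aggregating proteoglycan, was lower, at 610.4, 630.5 and 753 CPM against 356, 313 and 424 CPM (log2 change -0.88 ± 0.15, adjusted p = 0.0237). None of these 4 overlapped between groups, and none was called without the block, at adjusted p of Ogn (0.158), Mfap2 (0.342), Mfap4 (0.0839) and Vcan (0.174). Ogn lost its call without CM-JAKi replicate 1 (0.152), MG-CM replicate 2 (0.183), CM-JAKi replicate 2 (0.149), MG-CM replicate 3 (0.208) or CM-JAKi replicate 3 (0.164) or with scaling by library size (0.0519) or with no low-count filter (0.0735). Mfap2 lost its call without any 1 of the 6 libraries (0.091 to 0.19) or with scaling by library size (0.0556) or with no low-count filter (0.0662). Mfap4 lost its call without any 1 of the 6 libraries (0.0948 to 0.166). Vcan lost its call without any 1 of the 6 libraries (0.0559 to 0.115).

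Fibroblast identity genes were called in both directions, with 4 of 27 tested identity genes higher (Pdgfra, Fap, Col1a1 and Col1a2) and 4 lower (Pdpn, Ly6c1, Ly6a and Twist1). The Ly6 genes, surface proteins that are also interferon-responsive, had the largest differences. Ly6a stood at 124, 106 and 113 CPM in MG-CM and 14.8, 17.7 and 27.2 CPM in CM-JAKi (log2 change -2.57 ± 0.22, adjusted p = 0.0036), and Ly6c1 at 37.3, 36.3 and 41.5 CPM against 4.83, 4.82 and 8.78 CPM (log2 change -2.7 ± 0.18, adjusted p = 0.00122). Neither differed between CM and MG-CM at the threshold (log2 change 0.25 ± 0.20, adjusted p = 0.409 for Ly6a and log2 change -0.15 ± 0.16, adjusted p = 0.519 for Ly6c1), and both calls were made without each library and without the block. Twist1, a transcription factor of mesenchymal cells, differed by 1.3-fold (log2 change -0.37 ± 0.06, adjusted p = 0.023). Twist1 lost its call without any 1 of the 6 libraries (0.0714 to 0.134). It was not called without the block either (0.209).

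Secreted factors and their receptors were called in both directions, where 1.85% of all genes tested were called higher and 2.4% lower. Igfbp2, which binds insulin-like growth factors, stood at 24.8, 30.5 and 19.9 CPM in MG-CM and 7.39, 2.96 and 1.97 CPM in CM-JAKi (log2 change -2.74 ± 0.35, adjusted p = 0.0111) and was below control in CM as well, at 2.5, 1.67 and 1.97 CPM. Igfbp7 was 1.7-fold higher (log2 change 0.76 ± 0.13, adjusted p = 0.0216). They were the 2 calls among 13 tested genes of the insulin-like growth factor axis. Fgf23, a phosphate-regulating hormone, stood at 67.5, 13.7 and 23.3 CPM against 11.5, 0.778 and 2.36 CPM, with the highest level of both these groups in PSC4 (log2 change -2.98 ± 0.62, adjusted p = 0.0491). Of 38 tested growth factors and receptors, 5 were higher (Pdgfra, Fgf7, Egfr, Mdk and Angptl4) and 2 lower. Mdk, or midkine, was near 1 to 2 CPM in PSC4 and higher in PSC5-I and PSC5-II, at 1.3, 22.6 and 15 CPM against 1.88, 43.2 and 43.9 CPM (log2 change 1.1 ± 0.18, adjusted p = 0.0204). The 2 lower were Nrg1, a ligand of ErbB receptors (log2 change -0.57 ± 0.10, adjusted p = 0.0228), and Angptl2 (log2 change -0.72 ± 0.07, adjusted p = 0.00432). Igfbp2 lost its call without CM-JAKi replicate 2 (0.0734) or MG-CM replicate 3 (0.0644) or with CM left out of the fit (0.0517). Igfbp7 lost its call without any 1 of the 6 libraries (0.0535 to 0.131). Fgf23 lost its call without any 1 of the 6 libraries (0.0509 to 0.186) or with scaling by library size (0.0544) or with no low-count filter (0.0904). Mdk lost its call without MG-CM replicate 2 (0.0954), CM-JAKi replicate 2 (0.113), MG-CM replicate 3 (0.119) or CM-JAKi replicate 3 (0.0656). Nrg1 lost its call without MG-CM replicate 1 (0.0807), CM-JAKi replicate 1 (0.0672), MG-CM replicate 2 (0.076), CM-JAKi replicate 2 (0.115) or MG-CM replicate 3 (0.113). Without the block adjusted p was Igfbp7 (0.0659), Fgf23 (0.274), Mdk (0.843), Nrg1 (0.0718) and Angptl2 (0.129).

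Transforming growth factor beta (TGF-beta) genes had 5 of 29 tested called lower (Smad6, Tgif1, Tgfbi, Wisp2 and Bhlhe40) and 0 called higher by edgeR, with 3 higher at an unadjusted p under 0.05 and 1 by DESeq2. Tgfbi, a matrix protein induced by TGF-beta, stood at 352, 222 and 186 CPM in MG-CM and 118, 82.3 and 51.6 CPM in CM-JAKi (log2 change -1.6 ± 0.28, adjusted p = 0.0332). Wisp2, a matricellular protein, stood at 92.2, 40 and 33.8 CPM against 29.7, 10.8 and 10.9 CPM (log2 change -1.7 ± 0.27, adjusted p = 0.0237), and Tgif1, a repressor of SMAD signalling, at 85.6, 69.7 and 71.1 CPM against 50.3, 48.9 and 46.8 CPM (log2 change -0.62 ± 0.10, adjusted p = 0.0211). None overlapped between groups. The ligand Tgfb1 stood at 16.5, 14.9 and 12.3 CPM against 19.5, 13 and 11.8 CPM and was not called (log2 change 0.00, 95% interval -0.25 to 0.24, adjusted p = 0.988). Without the block 0 of the 5 were called (adjusted p Tgfbi (0.0661), Wisp2 (0.187) and Tgif1 (0.125)), and with a library left out 0 were called except 2 without CM-JAKi replicate 1. Tgfbi lost its call without any 1 of the 6 libraries (0.0701 to 0.13) or with no low-count filter (0.0567). Wisp2 lost its call without MG-CM replicate 1 (0.0871), MG-CM replicate 2 (0.0814), CM-JAKi replicate 2 (0.117), MG-CM replicate 3 (0.0804) or CM-JAKi replicate 3 (0.1). Tgif1 lost its call without any 1 of the 6 libraries (0.054 to 0.122).

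Among stress and metabolic genes, 2 differences lay below control and were called without each library in turn. Ndrg1, a hypoxia-responsive gene, stood at 126, 121 and 109.6 CPM in MG-CM and 61.9, 50.5 and 42.2 CPM in CM-JAKi (log2 change -1.22 ± 0.08, adjusted p = 0.00116). It was the only lower call among 25 tested HIF factors and hypoxia targets. In that list Ddit4l was called higher, and the median log2 change was 0.01. Mt2, a metallothionein that binds zinc, stood at 120.5, 52.6 and 59.8 CPM against 65.3, 25.9 and 31.3 CPM (log2 change -0.95 ± 0.10, adjusted p = 0.00524), while CM held 603, 188 and 270.2 CPM. The groups overlapped for Mt2, and without the block it was not called (0.61). In fatty acid genes, Acsl1, which activates long-chain fatty acids, was lower (log2 change -0.65 ± 0.10, adjusted p = 0.0186) and Acss2, which makes acetyl-CoA from acetate, higher (log2 change 0.47 ± 0.08, adjusted p = 0.0237), 1 each of 20 tested. Acsl1 lost its call without MG-CM replicate 1 (0.0711), MG-CM replicate 2 (0.0948), CM-JAKi replicate 2 (0.0828), MG-CM replicate 3 (0.0814) or CM-JAKi replicate 3 (0.0713). Acss2 lost its call without any 1 of the 6 libraries (0.0597 to 0.124). Acss2 was not called without the block either (0.0774). The endothelin receptors Ednra (log2 change -0.79 ± 0.13, adjusted p = 0.0237) and Ednrb (log2 change -3.1 ± 0.51, adjusted p = 0.0228) were the 2 calls, both lower, among 15 tested pericyte and smooth muscle markers, and neither was called without the block (Ednra (0.306) and Ednrb (0.102)). Ednra lost its call without any 1 of the 6 libraries (0.0818 to 0.112). Ednrb lost its call without CM-JAKi replicate 1 (0.089), CM-JAKi replicate 2 (0.106), MG-CM replicate 3 (0.0814) or CM-JAKi replicate 3 (0.0663).

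By edgeR, contractile genes were little called between CM-JAKi and control. Over all genes 2.4% were called lower here and 12.8% in CM against MG-CM. Of 29 tested, 1 was lower, Cnn1 (calponin), and 0 were higher, with a median log2 change of -0.13, where CM against MG-CM called 24 lower. Unadjusted p lay under 0.05 for 6 lower and 2 higher members, and with DESeq2 the calls were 1 lower and 0 higher. Acta2, smooth muscle actin, stood at 265, 609.7 and 664 CPM in MG-CM, 253, 383 and 579.7 CPM in CM-JAKi and 8.73, 103 and 103 CPM in CM (log2 change -0.27, 95% interval -1.44 to 0.9, adjusted p = 0.822). Tagln (transgelin) stood at 102, 289.7 and 277 CPM, 100.3, 230.1 and 304 CPM and 6.81, 60.8 and 80.5 CPM (log2 change -0.07, 95% interval -0.97 to 0.82, adjusted p = 0.945). The intervals of both include differences of more than 1.5-fold in either direction, so equality with control is not shown. Cnn1 stood at 14.4, 33.3 and 40.2 CPM, 8.5, 23.1 and 24.8 CPM and 2.75, 8.74 and 11.5 CPM (log2 change -0.66 ± 0.12, adjusted p = 0.0285), and was not called without the block (0.805). Cnn1 lost its call without any 1 of the 6 libraries (0.0888 to 0.126). Ctgf, a matricellular factor and YAP target, stood at 44.8, 46.5 and 26.1 CPM, 34, 40.9 and 43.6 CPM and 7.02, 15.3 and 16.2 CPM (log2 change 0.00, 95% interval -0.74 to 0.74, adjusted p = 0.998).

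Spp1 and Dcn, both far above control in CM, were not called. Spp1 (osteopontin) stood at 1849, 695 and 1351 CPM in MG-CM, 2338, 894 and 532 CPM in CM-JAKi and 23206, 7299 and 9168 CPM in CM (log2 change -0.2, 95% interval -0.98 to 0.58, adjusted p = 0.799). The PSC5-II pair had less Spp1 in CM-JAKi than in MG-CM, against the PSC4 and PSC5-I pairs. Dcn (decorin), a small proteoglycan, stood at 512, 262 and 352 CPM, 485, 213 and 495 CPM and 4610.4, 1197 and 2348 CPM (log2 change 0.04, 95% interval -0.49 to 0.57, adjusted p = 0.947). In both genes the CM-JAKi and MG-CM libraries overlap and the CM libraries lie above them all.

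**Figure D5:**
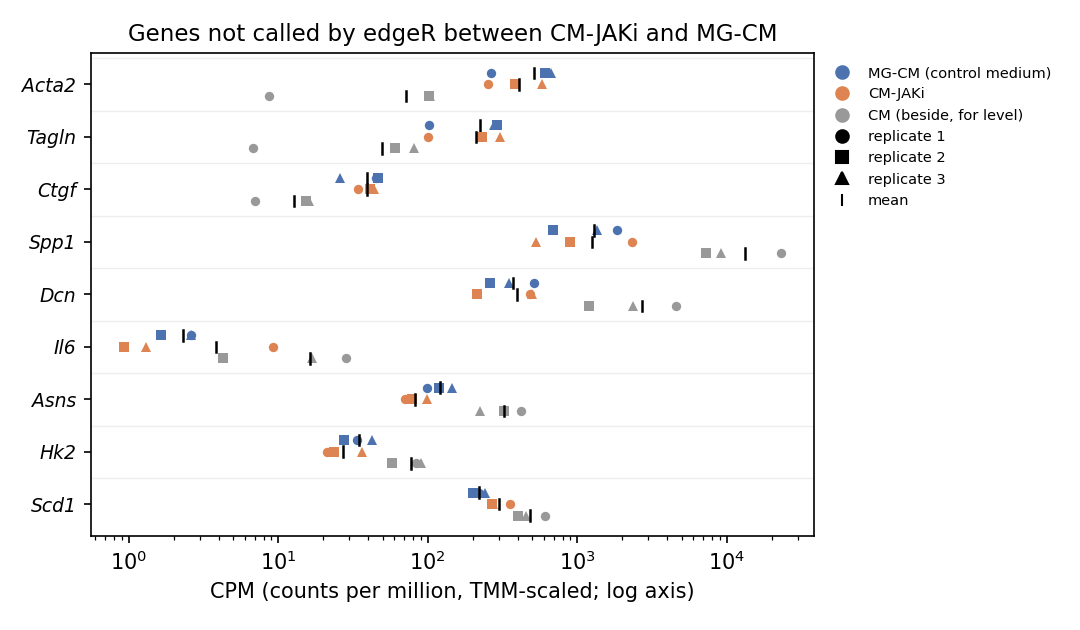
TMM-scaled CPM on a log axis for 9 genes not called by edgeR between CM-JAKi (orange) and MG-CM (blue), with CM in grey; marker shapes give the replicate number and black ticks the mean of 3. For Acta2, Tagln and Ctgf every CM point lies left of the other groups' points, and for Spp1, Dcn, Asns, Hk2 and Scd1 right of them.

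Cholesterol synthesis, glycolysis and the ATF4 programme, each with many calls in CM, had none by edgeR here. Over all genes 4.25% were called here and 24.4% in CM against MG-CM, so lists of this size would hold few calls here. In cholesterol synthesis and uptake 0 of 28 tested genes were called by edgeR, with 1 lower and 3 higher before adjustment (p under 0.05) and 2 higher and 1 lower by DESeq2. CM against MG-CM called 21 higher. The median log2 change was 0.12, with 25 of the 28 above zero. In glycolysis and lactate export 0 of 23 were called, with 1 lower and 2 higher before adjustment and 0 by DESeq2, against 15 higher in CM. In the ATF4 programme of amino acid supply 0 of 32 were called, with 1 lower and 0 higher unadjusted and 0 by DESeq2, against 20 higher in CM. A fit of the 6 libraries by themselves called 7 of these 32 lower, among them Asns (adjusted p = 0.00142), asparagine synthetase, which stood at 99, 119.7 and 146 CPM in MG-CM, 70.9, 78.4 and 98.3 CPM in CM-JAKi and 421, 323 and 224 CPM in CM (log2 change -0.56, 95% interval -1.19 to 0.07, adjusted p = 0.319). Hk2 (hexokinase 2) stood at 33.7, 27.7 and 42.2 CPM against 21.3, 23.5 and 36.4 CPM (log2 change -0.36, 95% interval -0.67 to -0.05, adjusted p = 0.207) and Scd1, a fatty acid desaturase, at 219.9, 202 and 243 CPM against 358, 267 and 273 CPM (log2 change 0.42, 95% interval 0.14 to 0.7, adjusted p = 0.116, and 0.0249 by DESeq2).

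In the remaining lists few genes were called, where 4.25% of all genes tested were. Cytosolic ribosomal proteins all had log2 changes below zero, 42 of 42 tested, with a median of -0.20, yet 0 were called by edgeR (1 lower before adjustment) or DESeq2, while the fit with CM left out called 12 lower. Genes of DNA replication and mitosis had 0 of 44 called (6 lower before adjustment, 1 lower by DESeq2), and the nuclear-encoded respiratory chain 0 of 32 (1 higher before adjustment, 0 by DESeq2). Endoplasmic reticulum chaperones (0 of 25) and aminoacyl-tRNA synthetases (0 of 20) also had no call by either tool, with 1 and 0 lower before adjustment. The p53 targets and senescence genes had 0 of 24 called, with 10 higher before adjustment (9.67% of all genes were), 3 called higher by DESeq2 and a median of 0.27. BMP and activin genes had 0 of 24 called (4 lower and 1 higher before adjustment, 2 lower by DESeq2), and Notch genes 0 of 13 (1 lower and 2 higher before adjustment, 0 by DESeq2).

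Single or few members were called in 4 other lists. Wnt2, a ligand, was the one lower among 27 Wnt genes tested, at under 1 CPM (log2 change -3.18 ± 0.64, adjusted p = 0.0414). Atf3, a stress-induced transcription factor, was the one lower among 28 YAP and SRF targets (log2 change -0.87 ± 0.16, adjusted p = 0.0317), and Nrn1, a neuritin, among 8 Schwann and neural markers (log2 change -0.45 ± 0.10, adjusted p = 0.0458). Among 32 NRF2 targets and antioxidants, the glutathione transferase Gstm5 was higher (log2 change 0.41 ± 0.08, adjusted p = 0.0363), and Gclm, a subunit of the enzyme that starts glutathione synthesis, was lower (log2 change -0.34 ± 0.07, adjusted p = 0.0438) beside Mt2. None of these 5 was called without the block, with adjusted p of Wnt2 (0.0613), Atf3 (0.169), Nrn1 (0.441), Gstm5 (0.508) and Gclm (0.237). Wnt2 lost its call without any 1 of the 6 libraries (0.0983 to 0.159). Atf3 lost its call without any 1 of the 6 libraries (0.0725 to 0.152). Nrn1 lost its call without any 1 of the 6 libraries (0.106 to 0.183) or with scaling by library size (0.0645). Gstm5 lost its call without MG-CM replicate 1 (0.11), CM-JAKi replicate 1 (0.107), CM-JAKi replicate 2 (0.164), MG-CM replicate 3 (0.186) or CM-JAKi replicate 3 (0.156). Gclm lost its call without MG-CM replicate 1 (0.0737), MG-CM replicate 2 (0.172), CM-JAKi replicate 2 (0.219), MG-CM replicate 3 (0.209) or CM-JAKi replicate 3 (0.183) or with scaling by library size (0.0646). Of 10 abundant noncoding and RNA-quality genes 0 were called, with 1 higher before adjustment and 0 by DESeq2.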

How the data were processed

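Total RNA depleted of ribosomal RNA was made into strand-specific TruSeq libraries, per the labels' protocols. The authors deposited a table that was taken to hold estimated counts per gene, in whole numbers and not scaled between libraries. Its makers used STAR 2.5.1b and RSEM 1.2.29, per the submitters' processing notes, which also list DESeq2, NCBIM37 and mm9 and give no roles. Estimated counts divide reads among near-identical genes, whose single values are uncertain.

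The tests used edgeR 4.0.16 (R 4.3.3). Genes were kept by filterByExpr (minimum count 10, minimum total 15) and libraries scaled by TMM. All 9 libraries entered a robust quasi-likelihood fit whose terms were group and replicate number (4 residual degrees of freedom); CM-JAKi against MG-CM was tested by F-test, Benjamini-Hochberg adjusted over 13613 genes, with a call at adjusted p below 0.05. Levels are CPM on TMM-scaled totals where not called unscaled. The numbers pair the samples because they share a stellate line, per the labels. After removal of group means, same-numbered MG-CM and CM-JAKi libraries correlated across genes at 0.680, 0.448 and 0.457, and no other pairing was higher than 0.279. Replicates of a group differed beyond counting noise (chi-square per degree of freedom 15.3 or more).

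The comparison and its 42 gene lists were chosen with earlier results of these data known. Named genes are the 15 highest and 15 lowest calls whose mean log2 CPM reached 2, with 3 of 3 pairs in one direction (predicted or unnamed genes left out), from each list at most 4 genes of lowest p, and a fixed panel of 20; other genes named to fill out a count of calls were chosen after their values were seen. Alternatives were no block, CM left out, other scalings (DESeq2 size factors, library size), no filter, DESeq2 1.42.0, no robust estimation, glmTreat at 1.5-fold, and libraries or replicate numbers left out. Promoter windows came from RefSeq (GRCm38.p6), matched by symbol, and bear no coordinates of the authors' build. One named gene is not reported here.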

Additional observations from a re-analysis of the deposited data

How the results depend on the processing

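The 252 genes higher and 327 lower kept their direction in every alternative in which they were tested, but their number did not hold. Without the replicate block the counts were 39 and 98 (block: same line within a pair). With CM left out of the fit they were 567 and 716, by DESeq2 449 and 588, and by glmTreat at 1.5-fold 35 and 85. DESeq2 size factors, library size alone, no filter and no robust estimation stayed within 1.5 times, though the higher share of calls was 43.5% with TMM, 28.5% without the block and 29.2% by glmTreat. Leaving out 1 library gave 37 to 161 higher and 63 to 176 lower. Leaving out all libraries of replicate 1 gave 510 and 485, of replicate 2 31 and 104, and of replicate 3 6 and 15. Without replicate 3, 0 of the interferon and MHC class I calls were made. The cause was not tested.

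The line-by-group term was called in 0 genes by edgeR, with 526 at an unadjusted p under 0.05; DESeq2 was not run for it. Sign changes touched only uncalled genes. With single libraries left out, the log2 change ranged from -0.64 to 0.72 for Il6, -0.80 to 0.032 for Acta2, -0.41 to 0.20 for Tagln, -0.36 to 0.38 for Ctgf, -0.47 to 0.21 for Spp1, -0.20 to 0.27 for Dcn and -0.13 to 0.082 for Tgfb1. With a whole replicate number left out, values with the other sign were -0.91 for Il6 (replicate 1), 0.045 for Tagln (replicate 2), 0.25 and 0.089 for Ctgf (replicates 1 and 2), 0.35 for Spp1 and -0.20 for Dcn (replicate 3), and 0.096 and 0.021 for Tgfb1 (replicates 2 and 3). Ctgf was 0.012 without the block, 0.040 with CM left out and 0.019 by library size, and Tgfb1 0.022 without the block and 0.020 by library size. With 3 pairs, a difference that was not called is not shown to be absent.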
